A study of Mus musculus with 13 samples.

Results

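Chemokines are small secreted proteins that direct cell migration through receptors coupled to G proteins, and they are named for the spacing of their first cysteines (CC, CXC, CX3C). Interleukins carry signals mostly between immune, stromal and epithelial cells, and most of their receptors are pairs of chains of which 1 is often shared by several ligands. In the adrenal gland both families are known from resident macrophages, vessels and stroma, and several interleukins, interleukin 6 among them, are known to act on steroid-making cells. The genes described here are every gene of the deposited tables whose symbol starts with Ccl, Ccr, Cxcl, Cxcr or Il followed by a digit, together with Cx3cl1 and Cx3cr1. The rule found 88 of the 14715 genes listed. They comprised 18 CC chemokines, 9 CXC chemokines, 1 CX3C chemokine, 12 chemokine receptors, 12 interleukins, 33 interleukin receptor chains, 2 secreted proteins that block a cytokine (Il1rn and Il18bp) and 1 enzyme named with the interleukins (Il4i1). The rule used symbols and no measured value.

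RNA from adrenal glands of C57BL/6 mice was sequenced in 3 groups: 5 libraries from before TAM, 4 from 24 h later and 4 from 8 weeks later. TAM, short for tamoxifen, induced the loss of Star, whose protein carries cholesterol into mitochondria for steroid synthesis. The labels time the later groups both from TAM and from the loss of Star, and give the same strain for all libraries. The promoter and cell type that drive the recombinase, the alleles, and the age and sex of the mice are not given in the sources used here. No mice given TAM without the deletion are among these samples, so TAM, time and the loss of Star cannot be told apart. The labels number the libraries and do not name animals, and a p-value therefore speaks only for the spread from library to library, which may be technical in part.

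Listed reads ran from 17331673 to 27309429 per library. Star stood at 3207 to 4239 FPKM before TAM, at 17.4 to 626 at 24 h and at 85.9 to 202 at 8 weeks, so each later library lay below each library from before. Markers of the labelled tissue were present before TAM, with a summed level of 21628 to 26314 FPKM for 7 cortex genes and 1171 to 5151 for 7 medulla genes. At 24 h the medulla sum was 4098 and 2195 in replicates 1 and 2 and 72.4 and 116 in replicates 3 and 4. Replicate 3 of 24 h also had the lowest sums of the 24 h libraries for cortex genes (4132 FPKM), endothelial genes (116) and fat cell genes (50.4). The cortex enzymes Cyp11b1 and Cyp21a1 read 1.07 and 2.42 FPKM there, against at least 969 and 1391 in the other 24 h libraries. Its low Star level thus came with low levels of some cortex genes but not of all. Hsd3b1, at 3024 FPKM, was the highest of the 24 h libraries, and Nr5a1, at 104, was above replicate 4 (93.6). The total counts of rises and falls at 24 h are therefore also given without this library.

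At 8 weeks most of these genes were higher than before TAM. Of the 86 tested, 61 rose, 6 fell and 19 did not pass the test, where across all genes tested 27.7% rose and 26.4% fell. The median log2 fold change of the 86 was 1.80, against −0.003 over all genes tested. A gene is listed only if its transcript reached 16 reads in at least 4 before libraries or at least 3 of the later ones, so 30 of the 86 were listed only through their level at 8 weeks and had to be high there. Of the other 56, listed through the before libraries, 33 rose and 6 fell (median 1.13), against 25.0% and 28.2% of all genes listed in that way. At 24 h 23 of 73 rose and 2 fell (median 0.90, against 0.017 over all genes), where 9.19% of all genes tested rose and 5.78% fell. Among the 56 listed through the before libraries 15 rose and 2 fell at 24 h, against 8.69% and 5.95%. Without 24 h replicate 3, 35 of 73 rose, all 23 among them, and 3 fell, where 2167 (15.4%) of the 14074 genes tested rose and 1684 fell. The 12 added rises were those of Ccl11, Ccl19, Ccl22, Ccr1, Ccr2, Ccr7, Cx3cl1, Cxcr4, Il3ra, Il4i1, Il6ra and Il33, and the added fall that of Il22ra1. At 24 h 12 of the 25 calls held without each library in turn. Tests are edgeR's quasi-likelihood tests, with p-values adjusted over all genes by Benjamini-Hochberg and a threshold of 0.05. The 2 contrasts share the before libraries, so their values are set side by side and not correlated.

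**Figure D1:**
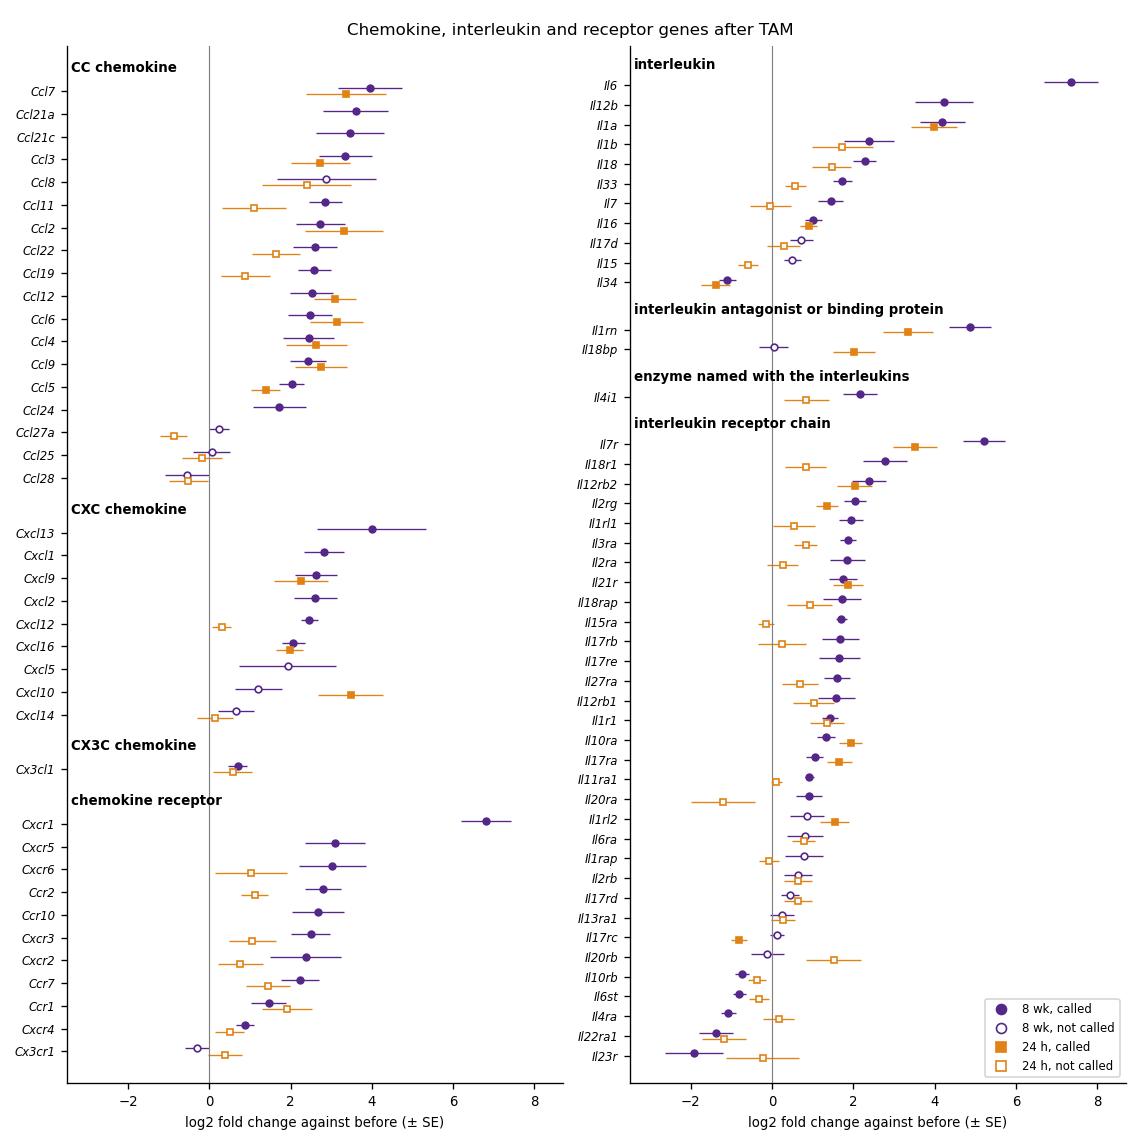
Each row is 1 gene, grouped by role, and the horizontal axis gives its log2 fold change against the before libraries with its standard error as a bar. Purple circles are 8 weeks (n = 4) and orange squares 24 h (n = 4), each against 5 before libraries. Filled symbols passed the test. Most purple circles lie to the right of 0, and the called values to the left are Il34 and 5 receptor chains at 8 weeks and Il34 and Il17rc at 24 h.

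Bulk tissue gives 1 level per gene in each library. More cells of a type, more RNA per cell and a larger share of the RNA where other cells lose theirs cannot be told apart. The summed level of the 7 cortex genes was 21628 to 26314 FPKM before and 1386 to 3234 at 8 weeks. Markers of several cell types moved with the counts above. The summed level of 12 macrophage genes was 379 to 1062 FPKM before, 2311 to 3918 at 24 h and 5156 to 10052 at 8 weeks, with 10 of 12 higher at 24 h and 11 of 12 at 8 weeks, and Adgre1 was not listed. All 8 T cell genes listed and all 5 B cell genes rose at 8 weeks, against 2 of 8 and 0 of 4 at 24 h. For the B cell genes the count at 24 h was 0 also at an unadjusted p under 0.05 in edgeR and by DESeq2. The sums were 2.36 to 10.5, 8.09 to 20.3 and 17.7 to 51.8 FPKM for T cells and 1.51 to 5.01, 2.87 to 4.22 and 5.59 to 71.5 for B cells. Against 1 of 6 and 0 of 5 at 24 h (1 of 5 for mast cells by DESeq2), dendritic cell genes (5 of 7 higher) and mast cell genes (5 of 6) also rose at 8 weeks. So did fat cell genes (6 of 7), whose sum was 179 to 1208 FPKM before and 4289 to 10572 at 8 weeks, and medulla genes (6 of 7), at 5134 to 7618 FPKM. At 24 h 0 of 7 fat cell genes and 0 of 7 medulla genes rose. Other lists moved less or the other way at 8 weeks. Natural killer cell genes rose in 2 of 6 cases and red blood cell genes in 1 of 3. Among 7 endothelial genes 1 rose and 4 fell. Across all genes tested, 27.7% rose and 26.4% fell. The part of these markers in the results below was not tested.

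CC chemokines draw mainly monocytes, macrophages, lymphocytes and dendritic cells. Of the 18, 14 rose at 8 weeks by edgeR and 0 fell. By DESeq2, and also at an unadjusted p under 0.05 in edgeR, these were 15 and 0. At 24 h 8 of 15 had risen. Of all genes tested 27.7% rose at 8 weeks and 9.19% at 24 h. Ccl2, Ccl3, Ccl4, Ccl7, Ccl8, Ccl12, Ccl21a, Ccl21c, Ccl22 and Ccl24 were not listed through the before libraries and had to be high later. Ccl2, a monocyte attractant that acts through Ccr2, read 4.80, 2.22, 1.30, 0.618 and 0.660 FPKM in the 5 before libraries, 7.23, 6.74, 2.97 and 55.5 at 24 h and 11.3, 22.7, 9.67 and 5.79 at 8 weeks. Replicate 4 was far above the other 24 h libraries, of which replicate 3 lay inside the before range, and each 8-week library was above each before library. The log2 fold change of Ccl2 was 2.74 (adjusted p = 0.0045, SE 0.61) at 8 weeks and 3.32 (adjusted p = 0.045, SE 0.96) at 24 h. The 24 h call was lost without any 1 of 7 of the 9 libraries, with adjusted p from 0.051 to 0.18, and without 24 h replicate 4 the value was 1.56. Without before replicate 1 the changes were 3.39 at 8 weeks and 3.99 at 24 h. The related monocyte attractants Ccl7 and Ccl12 followed, with log2 changes of 3.95 (adjusted p = 0.0023, SE 0.78) and 2.52 (adjusted p = 0.0034, SE 0.54) at 8 weeks and 3.37 (adjusted p = 0.048, SE 0.99) and 3.10 (adjusted p = 0.0052, SE 0.53) at 24 h. The 24 h call of Ccl7 was lost without any 1 of 8 of the 9 libraries (adjusted p up to 0.12, without 24 h replicate 4), whereas that of Ccl12 held without any single library. Ccl8, another ligand of this kind, spread from 0.189 to 16.2 FPKM before TAM and from 4.67 to 83.9 at 8 weeks, and its change of 2.88 (adjusted p = 0.069, SE 1.22) did not pass.

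Ccl6 and Ccl9, myeloid chemokines of rodents that act through Ccr1, rose at both times, and Ccl6 had the highest mean of the CC chemokines at each. Ccl6 read 8.99, 25.4, 27.6, 5.24 and 7.51 FPKM before, 72.2, 75.3, 90.1 and 277 at 24 h and 93.3, 79.6, 102 and 42.8 at 8 weeks. Each later library lay above each before library, and 24 h replicate 4 again stood apart. Its log2 fold change was 3.13 (adjusted p = 0.011, SE 0.64) at 24 h, 2.36 without that library, and 2.48 (adjusted p = 0.0035, SE 0.53) at 8 weeks. Ccl9 changed by 2.75 (adjusted p = 0.021, SE 0.65) at 24 h, 1.74 without replicate 4, and by 2.43 (adjusted p = 0.0016, SE 0.45) at 8 weeks. Ccl3, Ccl4 and Ccl5, inflammatory chemokines that attract macrophages and T cells, rose at both times. Ccl3 went from 4.23, 2.62, 0.709, 0.315 and 0.490 FPKM to 13.8, 10.99, 5.21 and 13.2 at 24 h and 17.8, 21.7, 14.8 and 11.03 at 8 weeks, with no overlap between before and either later group. Its log2 change was 3.35 (adjusted p = 0.0023, SE 0.66) at 8 weeks, where leaving out before replicate 1 gave 4.02, and 2.73 (adjusted p = 0.034, SE 0.73) at 24 h. Ccl4 changed by 2.45 (adjusted p = 0.0089, SE 0.63) at 8 weeks and 2.64 (adjusted p = 0.042, SE 0.75) at 24 h, and Ccl5 by 2.03 (adjusted p = 0.00049, SE 0.30) and 1.38 (adjusted p = 0.028, SE 0.35). Without before replicate 1 the values of Ccl4 were 3.06 and 3.26, and that of Ccl3 at 24 h was 3.42. Ccl9 lost its 24 h call without before replicate 4 or 5 (adjusted p up to 0.058). The 24 h calls of Ccl3, Ccl4 and Ccl5 were each lost without several single libraries, among them 24 h replicates 1 and 2, with adjusted p up to 0.099.

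The ligands of Ccr7 guide dendritic cells and lymphocytes into lymphoid tissue, and they stood higher at 8 weeks. Ccl19 read 14.9, 10.6, 5.61, 5.87 and 7.14 FPKM before, 23.5, 20.9, 1.84 and 16.95 at 24 h and 57.6, 91.1, 21.5 and 35.3 at 8 weeks. The 24 h libraries straddled the before range, with replicate 3 below it, and each 8-week library was above it. The change was 2.58 (adjusted p = 0.00068, SE 0.41) at 8 weeks and 0.89 (adjusted p = 0.37, SE 0.61) at 24 h. Without 24 h replicate 3 the latter was 1.28 (adjusted p = 0.018). Ccl21a read 0.448, 15.98, 4.71, 1.21 and 3.08 FPKM before and 66.5, 75.3, 30.6 and 67.9 at 8 weeks, a log2 change of 3.60 (adjusted p = 0.0043, SE 0.80), or 4.66 without before replicate 2, its highest library before TAM. Its near-identical copy Ccl21c changed by 3.46 (adjusted p = 0.0067, SE 0.84), or 4.58 without the same library. Reads can be split between such copies, and a copy of Ccl19 exists too, so the values of single copies are uncertain. Neither Ccl21 gene was listed at 24 h, which places each of their transcript copies under 16 reads in at least 2 of the 4 libraries of 24 h. For Ccl21a that is under 0.833 FPKM per copy, whereas the levels above are sums over its 2 copies.

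Ccl11, which attracts eosinophils, rose at 8 weeks from a range of 1.06 to 3.29 to one of 9.43 to 29.4 FPKM, a log2 change of 2.86 (adjusted p = 0.00035, SE 0.40). Ccl22, a ligand of Ccr4, changed by 2.60 (adjusted p = 0.0029, SE 0.54), from a range of 0.0966 to 0.809 to one of 1.18 to 3.16 FPKM. Without before replicate 1 its change was 3.22. Ccl24, an eosinophil attractant near the read minimum, changed by 1.73 (adjusted p = 0.045, SE 0.65) and lost its call without any of 7 of the 9 libraries (adjusted p up to 0.14, without 8-week replicate 3). The chemokines of epithelia Ccl25, Ccl27a and Ccl28 did not pass at either time, with log2 changes from −0.55 to 0.24 at 8 weeks. Summed over the 15 CC chemokines listed in all tables, the level was 28.0 to 76.2 FPKM before, 166.4 to 508.0 at 24 h and 157.1 to 379.3 at 8 weeks, and Ccl6 held 27.6%, 47.3% and 28.3% of the group means.

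CXC chemokines were led by Cxcl12, a stromal chemokine that retains and positions Cxcr4-bearing cells. Cxcl12, at chr6:117168535-117181368 of mm10 (plus strand), read 57.01, 42.4, 29.8, 30.1 and 35.9 FPKM before, 62.2, 42.1, 57.2 and 27.3 at 24 h and 222, 276, 202 and 140.4 at 8 weeks. The 24 h libraries lay within and around the before range, and the lowest 8-week library was more than the highest of either other group. The log2 change was 2.46 (adjusted p = 2.4e-05, SE 0.21) at 8 weeks, 0.31 (adjusted p = 0.43, SE 0.23) at 24 h and 2.15 (adjusted p = 0.017, SE 0.29) between 8 weeks and 24 h. At 8 weeks Cxcl12 made up 71.3% of the summed level of the 5 CXC chemokines listed in all tables. All 7 fibroblast and capsule genes rose with it at 8 weeks, with sums of 146 to 433 FPKM before and 987 to 1711 at 8 weeks, but at 24 h their sum was already 592 to 962. Their part in the level of Cxcl12 was not tested.

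The pattern of Cxcl10, an interferon-induced ligand of Cxcr3, was different. Cxcl10 read 5.48, 1.37, 0.605, 0.996 and 1.28 FPKM before, 12.996, 10.9, 7.19 and 51.7 at 24 h and 2.45, 4.62, 4.68 and 5.24 at 8 weeks. Each 24 h library was above each before library, by the most in replicate 4, while the 8-week libraries overlapped the before range. Its change was 3.48 (adjusted p = 0.018, SE 0.80) at 24 h, 2.42 without replicate 4 and 4.36 without before replicate 1, and 1.21 (adjusted p = 0.1, SE 0.58) at 8 weeks. The 24 h call was lost without before replicate 2, 4 or 5, with adjusted p from 0.051 to 0.054. The difference between 8 weeks and 24 h was −2.28 (adjusted p = 0.066, SE 0.66), so a fall from 24 h did not pass. Cxcl9, the other Cxcr3 ligand measured, rose at both times, by 2.25 (adjusted p = 0.047, SE 0.66) and 2.62 (adjusted p = 0.0023, SE 0.52). Leaving out 8 of the 9 libraries, 1 at a time, ended the 24 h call of Cxcl9. Cxcl16, a membrane-bound ligand of Cxcr6 made by macrophages, read 18.5, 9.76, 9.02, 6.72 and 8.26 FPKM before, 51.9, 41.6, 23.5 and 44.4 at 24 h and 38.3, 58.7, 37.03 and 34.1 at 8 weeks. It rose by 1.98 (adjusted p = 0.0047, SE 0.33) at 24 h and stayed 2.07 (adjusted p = 0.00027, SE 0.28) above the before level, with no overlap at either time.

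**Figure D2:**
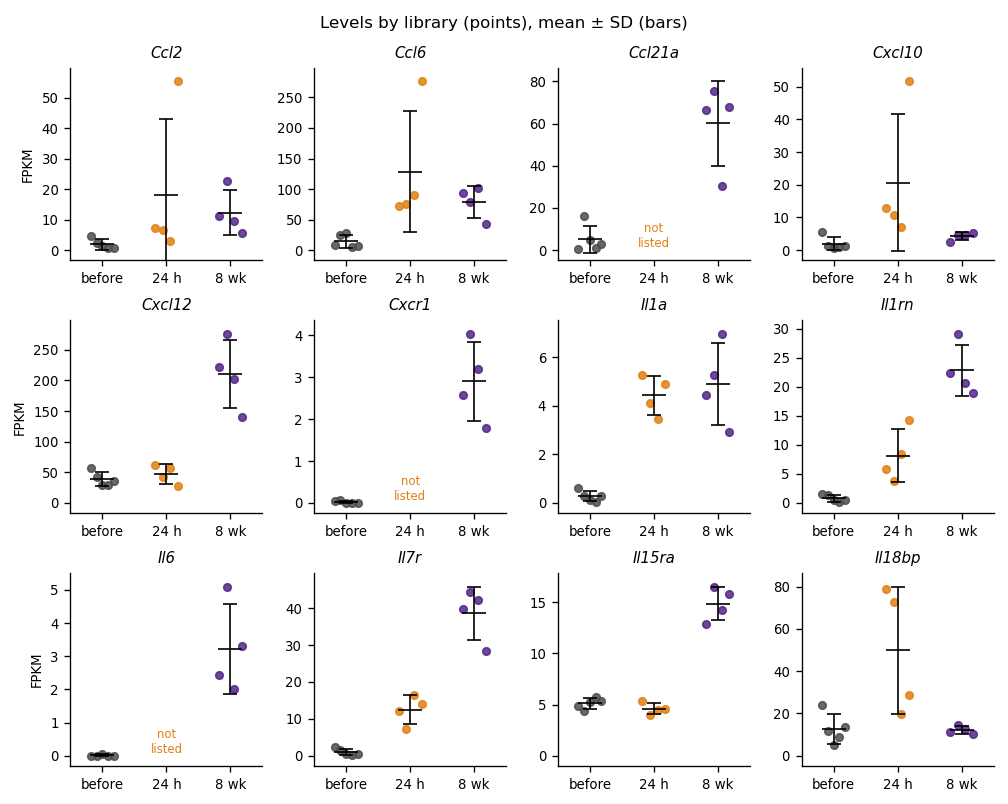
Each panel gives the FPKM of 1 gene in every library, before TAM (5 points), at 24 h (4) and at 8 weeks (4), with the mean and SD as black bars and a linear axis (a bar that runs below the axis is drawn to its edge). Genes marked as not listed were under the read minimum of the 24 h table. Cxcl10 and Il18bp are high at 24 h, Cxcl12, Il7r and Il15ra reach their highest levels at 8 weeks, and 24 h replicate 4 stands apart for Ccl2 and Ccl6.

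The neutrophil-directed ligands of Cxcr2 were scarce. Cxcl1, Cxcl2 and Cxcl5 were not listed through the before libraries and had to be high at 8 weeks. Cxcl1 read 0.729, 0.771, 0.221, 0.262 and 0.204 FPKM before and 1.77, 4.78, 3.46 and 1.97 at 8 weeks, and Cxcl2 read 0.526, 0.938, 0.259, 0.138 and 0.268 and 3.97, 2.92, 1.98 and 1.15. Both groups of libraries were separate for both genes, with log2 changes of 2.83 (adjusted p = 0.0012, SE 0.50) for Cxcl1 and 2.61 (adjusted p = 0.0028, SE 0.53) for Cxcl2. Cxcl5 ranged from 0 to 2.26 FPKM before and from 0.345 to 4.41 at 8 weeks and did not pass, at 1.93 (adjusted p = 0.19, SE 1.19). None of these 3 was listed at 24 h. Cxcl14, among the most abundant chemokines before TAM at 8.54 to 47.9 FPKM, did not pass at either time. Cx3cl1, the membrane-bound ligand of Cx3cr1, read 23.2, 21.6, 16.2, 17.7 and 20.5 FPKM before and 18.2, 51.3, 25.04 and 29.1 at 8 weeks. Its change of 0.70 (adjusted p = 0.032, SE 0.24) was lost without 8-week replicate 2 or before replicate 3, 4 or 5 (adjusted p up to 0.082), and the groups overlapped.

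Of the 12 chemokine receptors 11 rose at 8 weeks, where 27.7% of all genes tested did. Ccr7, Ccr10, Cxcr1, Cxcr3, Cxcr5 and Cxcr6 were not listed through the before libraries and had to be high later. Cxcr1, a receptor for CXC ligands on chromosome 1 (chr1:74191786-74194631 of mm10, minus strand), had 3 reads in all 5 before libraries together and 310 in the 4 from 8 weeks. In FPKM these were 0.0362, 0.0723, 0, 0 and 0 before and 2.58, 4.04, 3.20 and 1.80 at 8 weeks. Per listed read the ratio was 130.0, with an exact 95% counting interval of 44.1 to 633.9 that does not cover the spread between libraries. The fitted log2 change of 6.81 (adjusted p = 3.5e-05, SE 0.62) depends on the prior count and is no bound. Ccr2, the receptor of Ccl2 on monocytes, read 4.11, 1.96, 1.62, 1.55 and 1.54 FPKM before, 6.67, 3.93, 3.80 and 4.02 at 24 h and 29.2, 12.8, 7.63 and 7.94 at 8 weeks. Its change was 2.80 (adjusted p = 0.00078, SE 0.45) at 8 weeks, 2.20 without 8-week replicate 1, and 1.11 (adjusted p = 0.054, SE 0.34) at 24 h, or 1.24 (adjusted p = 0.03) without 24 h replicate 3.

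Receptors of T cells and other lymphocytes followed at 8 weeks. Cxcr3, the receptor of Cxcl9 and Cxcl10, changed by 2.49 (adjusted p = 0.0018, SE 0.47) and Ccr7, that of Ccl19 and Ccl21, by 2.23 (adjusted p = 0.0032, SE 0.47). Cxcr6 read 3.01, 0.580, 0.407, 0.0789 and 0.230 FPKM before and 9.61, 7.94, 5.73 and 3.54 at 8 weeks, a change of 3.03 (adjusted p = 0.011, SE 0.82), or 4.39 without before replicate 1. Ccr10, near the read minimum, changed by 2.67 (adjusted p = 0.0064, SE 0.64). Ccr1, the receptor of Ccl6 and Ccl9, changed by 1.46 (adjusted p = 0.015, SE 0.42) with overlapping groups. Cxcr4, the most abundant of the 12, went from a range of 14.9 to 30.4 to one of 24.2 to 50.1 FPKM, a change of 0.88 (adjusted p = 0.0079, SE 0.22). The macrophage and microglia receptor Cx3cr1 alone of the 12 did not pass, at 3.48 to 8.97 FPKM before and 2.75 to 6.31 at 8 weeks, and 11 of 12 macrophage markers were higher there.

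Replicate 1 of 8 weeks set the level of Cxcr2, the neutrophil receptor, and of Cxcr5, which guides B cells to follicles. Cxcr2 read 5.85, 0.283, 0.692 and 0.242 FPKM at 8 weeks against 0.261, 0.493, 0.355, 0.320 and 0.326 before. With that library its log2 change was 2.38 (adjusted p = 0.042, SE 0.87), and without it 0.31 (adjusted p = 0.57). Leaving out any 1 before library also ended the call (adjusted p up to 0.08). Cxcr5 read 0.171, 0.171, 0.0937, 0.0762 and 0.0740 FPKM before and 2.75, 0.239, 0.453 and 0.417 at 8 weeks, a change of 3.09 (adjusted p = 0.006, SE 0.74) with the library and 1.72 (adjusted p = 0.0099) without it. Cxcl13, the ligand of Cxcr5, was not listed through the before libraries and had to be high at 8 weeks. It read 0.140, 3.78, 2.68, 0.386 and 0.0416 FPKM before and 55.7, 4.41, 25.5 and 0.357 at 8 weeks. It was high in 8-week replicates 1 and 3, and its change of 3.99 (adjusted p = 0.03, SE 1.34) had an adjusted p of 0.097 without replicate 1 and of 0.052 to 0.063 without before replicate 1, 4 or 5. In the same library the neutrophil genes S100a8 and S100a9 read 987 and 827 FPKM, against 8.34 to 17.7 and 0.532 to 6.26 in the other 3. Of the neutrophil list 3 of 7 genes were listed, and Ly6g, Mpo, Elane and Retnlg were not. The third, Csf3r, did not stand apart in replicate 1. It read 9.34, 7.54, 6.18 and 4.33 FPKM at 8 weeks, all above its before range of 0.723 to 1.84. The B cell gene Ms4a1 read 17.2 FPKM there and 0.404 to 1.95 in the others. The part of these markers in the receptor levels was not tested.

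**Figure D3:**
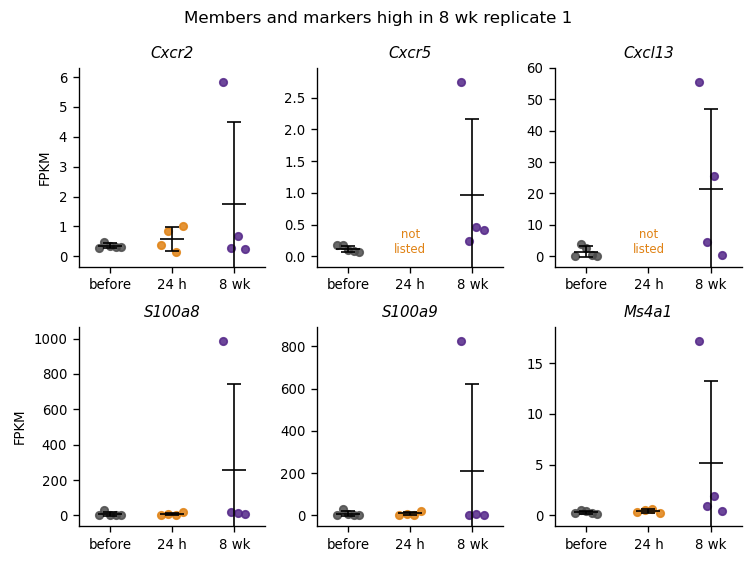
The panels give FPKM in every library, with mean and SD as black bars drawn to the edge of the axis where they run below it, for 3 members of the receptor and ligand families and for 3 marker genes of neutrophils (S100a8, S100a9) and B cells (Ms4a1). The highest point of each panel is 8-week replicate 1, at 5.85 FPKM for Cxcr2 and 987 for S100a8. Cxcr5 and Cxcl13 were not listed at 24 h.

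Of 11 interleukins tested at 8 weeks 8 rose and 1 fell, where 27.7% and 26.4% of all genes tested did. Il1a, Il6 and Il12b were not listed through the before libraries and had to be high later. The largest rise was that of Il6, a cytokine of inflammation that is known to act on the adrenal cortex. Il6, at chr5:30013161-30019968 of mm10 (plus strand), had 2 reads in the 5 before libraries together, both in replicate 3, and 326 in the 4 from 8 weeks. In FPKM it read 0, 0, 0.0644, 0 and 0 before and 2.44, 5.09, 2.01 and 3.29 at 8 weeks. The ratio per listed read was 205.1 with an exact 95% counting interval of 56.3 to 1701, and the fitted log2 change of 7.35 (adjusted p = 3.4e-05, SE 0.67) again depends on the prior count (without before replicate 3 it was 9.36). Il6 was not listed at 24 h, where at least 2 of the 4 libraries held fewer than 16 reads, equal to 0.469 to 0.665 FPKM by library. Il12b, a subunit shared by interleukins 12 and 23, had 7 reads before TAM and changed by 4.24 (adjusted p = 0.001, SE 0.72), from a range of 0 to 0.0650 to one of 0.249 to 0.765 FPKM. Without before replicate 1 the value was 5.00.

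Il6, Cxcl1 and Cxcl2 rose together at 8 weeks, and Cxcl10 at 24 h, so their promoters are shown for comparison. The 250 bases before each start site come from RefSeq on GRCm38.p6, which held such windows for 66 of the 88 genes. Capitals mark matches to the kappaB motif, to TGANTCA (the AP-1 site) and to GAAANNGAA (the core of the interferon-stimulated response element), searched on both strands.
Il6: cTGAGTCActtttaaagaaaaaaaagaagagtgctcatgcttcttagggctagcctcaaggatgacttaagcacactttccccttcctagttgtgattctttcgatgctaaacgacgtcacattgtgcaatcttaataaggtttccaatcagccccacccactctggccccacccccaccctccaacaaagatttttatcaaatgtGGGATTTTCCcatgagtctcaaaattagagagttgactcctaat
Cxcl1: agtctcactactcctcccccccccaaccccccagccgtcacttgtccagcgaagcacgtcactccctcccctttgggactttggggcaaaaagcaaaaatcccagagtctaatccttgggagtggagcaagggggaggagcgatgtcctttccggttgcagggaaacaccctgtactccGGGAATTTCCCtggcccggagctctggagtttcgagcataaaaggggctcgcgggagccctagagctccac
Cxcl2: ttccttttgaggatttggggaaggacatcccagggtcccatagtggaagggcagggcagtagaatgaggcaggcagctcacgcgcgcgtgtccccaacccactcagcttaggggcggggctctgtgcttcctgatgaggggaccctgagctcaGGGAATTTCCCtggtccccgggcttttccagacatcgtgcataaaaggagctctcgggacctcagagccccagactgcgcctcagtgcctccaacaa
Cxcl10: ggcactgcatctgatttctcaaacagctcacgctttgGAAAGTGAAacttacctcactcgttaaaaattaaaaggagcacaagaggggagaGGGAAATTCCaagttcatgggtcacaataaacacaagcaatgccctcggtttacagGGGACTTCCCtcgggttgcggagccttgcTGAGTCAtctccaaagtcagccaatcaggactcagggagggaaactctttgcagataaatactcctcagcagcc
The windows are chr5:30012864-30013113 (plus strand), chr5:90890995-90891244 (plus), chr5:90903649-90903898 (plus) and chr5:92348890-92349139 (minus). The Il6 window held a kappaB match whose first base lay 44 bases before the start and an AP-1 match 249 bases before it. That start is RefSeq's, chr5:30013114, which lies ahead of the deposited start of Il6 given above, chr5:30013161. In Cxcl1 and in Cxcl2 a pair of kappaB matches overlapped, starting 71 and 70 bases before the start in Cxcl1 and 97 and 96 in Cxcl2. Cxcl10 held kappaB matches at 159 and 103 bases, an AP-1 match at 74 and an interferon element match at 213. Of the 80 windows of these genes 8 held a kappaB match, 11 an AP-1 match and 8 an interferon element match. Of all 32851 windows 1281 (3.90%), 2217 (6.75%) and 2342 (7.13%) did. Among the 55 windows of members higher at 8 weeks these were 7 (12.7%), 8 (14.5%) and 6 (10.9%). Each window printed above held a kappaB match, so the printed windows do not stand for the members that rose. A match describes letters in a window and does not show that a factor binds there.

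The interleukin 1 family moved early in part. Il1a, an alarmin released by damaged cells, read 0.619, 0.300, 0.142, 0.0505 and 0.294 FPKM before, 5.26, 4.11, 3.47 and 4.90 at 24 h and 4.42, 5.27, 6.95 and 2.92 at 8 weeks. All later libraries were above all before libraries, and the levels of both later groups overlapped. Its log2 change was 3.98 (adjusted p = 0.0025, SE 0.56) at 24 h and 4.19 (adjusted p = 0.00024, SE 0.55) at 8 weeks, and its call at both times held without any single library. Il1b, made mainly by activated myeloid cells, read 2.03, 3.40, 0.501, 0.338 and 0.984 FPKM before, 4.73, 3.23, 1.11 and 9.27 at 24 h and 12.7, 5.74, 5.98 and 4.18 at 8 weeks, with a change of 2.38 (adjusted p = 0.0095, SE 0.62) at 8 weeks and 1.73 (adjusted p = 0.16, SE 0.76) at 24 h. Il18, which acts on natural killer and T cells, rose at 8 weeks from a range of 1.61 to 3.24 to one of 7.67 to 14.4 FPKM, a change of 2.28 (adjusted p = 0.00014, SE 0.27). Il33, an alarmin of stromal and barrier cells, read 8.74, 13.5, 13.9, 7.68 and 8.97 FPKM before, 16.3, 14.4, 11.2 and 20.3 at 24 h and 38.04, 46.6, 24.7 and 26.6 at 8 weeks, with log2 changes of 1.73 (adjusted p = 0.00029, SE 0.24) at 8 weeks and 0.58 (adjusted p = 0.17, SE 0.26) at 24 h, or 0.75 (adjusted p = 0.044) without 24 h replicate 3.

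Among interleukins that maintain lymphocytes, Il7 rose at 8 weeks by 1.45 (adjusted p = 0.0033, SE 0.31), from a range of 0.509 to 0.952 to one of 1.40 to 3.15 FPKM. Il15 stood at 7.51, 9.02, 4.65, 6.70 and 6.28 FPKM before, 5.74, 4.12, 3.78 and 4.21 at 24 h and 11.000, 11.5, 6.24 and 8.20 at 8 weeks, and its change at 8 weeks, 0.50 (adjusted p = 0.065, SE 0.21), did not pass. Il16, which attracts Cd4-bearing cells, rose at both times, by 0.90 (adjusted p = 0.022, SE 0.22) at 24 h and 1.02 (adjusted p = 0.0025, SE 0.20) at 8 weeks. At 24 h the call of Il16 was lost without 24 h replicate 1 or before replicate 2, 4 or 5, with adjusted p up to 0.063. Il17d, with a change of 0.71 (adjusted p = 0.056, SE 0.28) at 8 weeks, did not pass at either time. Il34, a second ligand of Csf1r beside Csf1, was the most abundant interleukin before TAM and the only one to fall. It read 23.3, 15.6, 16.2, 25.1 and 28.3 FPKM before, 10.9, 12.2, 4.27 and 5.29 at 24 h and 8.02, 12.5, 8.33 and 10.1 at 8 weeks. All later libraries lay below all before libraries, with the lowest values in 24 h replicates 3 and 4. Its change was −1.39 (adjusted p = 0.029, SE 0.36) at 24 h and −1.10 (adjusted p = 0.0015, SE 0.20) at 8 weeks. The 24 h call was lost without any 1 of 24 h replicate 4 and before replicates 1, 4 and 5 (adjusted p up to 0.073). Csf1, the other ligand, changed by 0.42 (adjusted p = 0.013, SE 0.12) at 8 weeks, and the receptor Csf1r by 1.72 (adjusted p = 0.0035, SE 0.26) at 24 h and 1.45 (adjusted p = 0.0014, SE 0.26) at 8 weeks.

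Both secreted inhibitors rose at 24 h. Il1rn, like Il4i1 below, was not listed through the before libraries and had to be high later. Il1rn, the antagonist that occupies the interleukin 1 receptor, at chr2:24336860-24351491 of mm10 (plus strand), read 1.56, 1.32, 0.552, 0.161 and 0.493 FPKM before, 5.92, 3.79, 8.48 and 14.4 at 24 h and 22.4, 29.1, 20.7 and 19.002 at 8 weeks. The 3 groups did not overlap. Its log2 change was 3.34 (adjusted p = 0.0076, SE 0.62) at 24 h and 4.87 (adjusted p = 6.7e-05, SE 0.51) at 8 weeks, and the step from 24 h to 8 weeks was 1.53 (adjusted p = 0.05, SE 0.39), which just missed the threshold. Il18bp, which binds and blocks interleukin 18, read 23.8, 11.7, 5.12, 8.84 and 13.7 FPKM before, 78.7, 72.5, 19.6 and 28.7 at 24 h and 11.4, 14.7, 12.7 and 10.1 at 8 weeks. It was highest in 24 h replicates 1 and 2, and the 8-week libraries lay inside the before range. The change was 2.02 (adjusted p = 0.027, SE 0.51) at 24 h and −1.97 (adjusted p = 0.039, SE 0.44) from 24 h to 8 weeks. The call at 24 h was lost without any 1 of 24 h replicates 1 and 2 and before replicates 2 to 5, with adjusted p from 0.051 to 0.072. Il4i1, a secreted amino acid oxidase of dendritic cells and macrophages, rose at 8 weeks by 2.166 (adjusted p = 0.0022, SE 0.42) from a low level of 0.156 to 0.342 FPKM.

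Of 32 interleukin receptor chains tested at 8 weeks 19 rose and 5 fell, and of 31 at 24 h 7 rose and 1 fell. Over all genes tested the shares were 27.7% and 26.4% at 8 weeks and 9.19% and 5.78% at 24 h. Il12rb1, Il12rb2, Il17re, Il18r1 and Il18rap were not listed through the before libraries and had to be high later. Il7r, the receptor chain for interleukin 7 and thymic stromal lymphopoietin, at chr15:9506159-9529876 of mm10 (minus strand), rose the most. It read 2.42, 1.52, 0.611, 0.310 and 0.618 FPKM before, 12.04, 7.15, 16.4 and 14.1 at 24 h and 39.6, 44.3, 42.3 and 28.3 at 8 weeks. The 3 groups did not overlap, and Il7r was the only gene of the 88 that passed in all 3 contrasts, with log2 changes of 3.51 (adjusted p = 0.0035, SE 0.54) at 24 h, 5.22 (adjusted p = 5.8e-05, SE 0.53) at 8 weeks and 1.71 (adjusted p = 0.02, SE 0.27) between them. Il2rg, the chain shared by the receptors of interleukins 2, 4, 7, 9, 15 and 21, read 10.9, 6.91, 6.04, 4.85 and 6.15 FPKM before, 17.6, 16.8, 12.98 and 22.3 at 24 h and 37.8, 33.2, 21.3 and 17.9 at 8 weeks. It changed by 1.35 (adjusted p = 0.0094, SE 0.26) at 24 h and 2.05 (adjusted p = 0.00024, SE 0.27) at 8 weeks, without overlap at either time. Il21r, its partner for interleukin 21, rose by 1.87 (adjusted p = 0.011, SE 0.38) and 1.75 (adjusted p = 0.0023, SE 0.34). Il2ra, the high-affinity interleukin 2 chain, rose at 8 weeks by 1.85 (adjusted p = 0.0049, SE 0.42), while Il2rb did not pass at either time.

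Il15ra, which presents interleukin 15 to neighbouring cells, was higher at 8 weeks than in either earlier group. At chr2:11705293-11733985 of mm10, it read 4.81, 4.38, 5.27, 5.74 and 5.37 FPKM before, 5.34, 4.01, 4.42 and 4.60 at 24 h and 12.8, 16.5, 14.3 and 15.8 at 8 weeks, over transcripts listed in all tables. The first 2 groups overlapped and the third lay apart, with changes of 1.71 (adjusted p = 1.7e-05, SE 0.13) against before and 1.76 (adjusted p = 0.013, SE 0.20) against 24 h. Both chains of the interleukin 18 receptor rose at 8 weeks, Il18r1 by 2.79 (adjusted p = 0.0022, SE 0.54) and Il18rap by 1.72 (adjusted p = 0.011, SE 0.46). Il1r1, the signalling receptor of interleukin 1, changed by 1.42 (adjusted p = 0.00037, SE 0.20), and Il1rl1, that of interleukin 33, by 1.94 (adjusted p = 0.00049, SE 0.29), while their shared partner Il1rap did not pass. Il12rb2 rose at both times, by 2.03 (adjusted p = 0.012, SE 0.43) at 24 h and 2.38 (adjusted p = 0.0013, SE 0.42) at 8 weeks, from a before level of 0.119 to 0.276 FPKM. Il10ra, the ligand-binding chain of the interleukin 10 receptor, changed by 1.93 (adjusted p = 0.0032, SE 0.29) at 24 h and 1.33 (adjusted p = 0.001, SE 0.23) at 8 weeks. Il17ra, common to receptors of the interleukin 17 family, changed by 1.66 (adjusted p = 0.0065, SE 0.30) and 1.05 (adjusted p = 0.0028, SE 0.21), and Il17rc, its partner chain, fell at 24 h from a range of 4.78 to 7.74 to one of 2.52 to 4.08 FPKM, −0.82 (adjusted p = 0.024, SE 0.20). Without before replicate 2, 4 or 5 the call of Il17rc was lost, with adjusted p up to 0.069.

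Il3ra rose at 8 weeks by 1.86 (adjusted p = 6.1e-05, SE 0.19), Il27ra by 1.60 (adjusted p = 0.0028, SE 0.33) and Il11ra1 by 0.92 (adjusted p = 0.00019, SE 0.12). Il11ra1 was abundant throughout, at 24.4 to 34.3 FPKM before and 43.8 to 62.8 at 8 weeks, and has a near-identical neighbour in the mouse with which reads can be shared. Il12rb1 (1.58 (adjusted p = 0.015, SE 0.45)), Il17rb (1.68 (adjusted p = 0.012, SE 0.46)), Il17re (1.66 (adjusted p = 0.019, SE 0.50)) and Il20ra (0.91 (adjusted p = 0.035, SE 0.32)) also passed at 8 weeks. Il17re lost its call without 8-week replicate 1 (adjusted p = 0.058), and Il20ra without any 1 of 8-week replicates 3 and 4 and before replicates 4 and 5 (adjusted p up to 0.1). In 1 fit of all libraries the adjusted p of Il20ra was 0.26. Il1rl2, the receptor of the interleukin 36 cytokines, rose at 24 h by 1.54 (adjusted p = 0.018, SE 0.35) and read 0.87 (adjusted p = 0.1, SE 0.42) at 8 weeks, which did not pass. The 24 h call was lost without before replicate 2, 4 or 5, with adjusted p of at most 0.052.

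The receptor chains that fell at 8 weeks included the 3 most abundant before TAM. Il10rb, a chain shared by the receptors of interleukins 10 and 22 and of lambda interferons, read 184, 148, 107, 160.3 and 164 FPKM before, 129, 148, 79.7 and 111 at 24 h and 84.7, 115, 77.1 and 73.6 at 8 weeks. The 8-week libraries were low, with 1 library overlapping the before range, and the change was −0.74 (adjusted p = 0.0043, SE 0.16). Il6st, the signal transducer gp130 shared by interleukins 6 and 11 and leukemia inhibitory factor, read 47.8, 62.97, 50.4, 66.7 and 61.7 FPKM before and 26.6, 29.96, 35.4 and 33.9 at 8 weeks. These did not overlap, with a change of −0.80 (adjusted p = 0.002, SE 0.15). Il4ra, the chain of the interleukin 4 and 13 receptors, read 52.8, 32.7, 42.1, 30.6 and 35.5 FPKM before, 46.2, 62.8, 14.5 and 45.6 at 24 h and 13.5, 18.1, 18.5 and 20.1 at 8 weeks. The 24 h libraries spread on both sides of the before range, and the change was −1.07 (adjusted p = 0.0014, SE 0.19) at 8 weeks and 0.16 (adjusted p = 0.82, SE 0.38) at 24 h. Cortex markers moved in the same direction, with all 7 lower at 8 weeks and a sum of 1386 to 3234 FPKM, and their part in these values was not tested.

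A pair of scarcer chains also fell. Il22ra1, the interleukin 22 chain, read 0.350, 0.440, 0.541, 0.513 and 0.274 FPKM before and 0.180, 0.0929, 0.250 and 0.0802 at 8 weeks, a change of −1.39 (adjusted p = 0.018, SE 0.42). Il23r, the interleukin 23 chain, read 4.03, 1.91, 8.05, 0.600 and 0.992 FPKM before and 1.15, 0.870, 0.586 and 0.605 at 8 weeks. Its before libraries spread widely and overlapped those of 8 weeks, and the change of −1.92 (adjusted p = 0.045, SE 0.72) became −1.10 (adjusted p = 0.12) without before replicate 3. The call was lost without any 1 of 6 of the 9 libraries, all 4 of 8 weeks among them, and by voom with quality weights (−0.63, adjusted p = 0.51). Il6ra, the interleukin 6 binding chain, did not pass at 8 weeks, so that of the receptor for Il6 the ligand-binding chain had a change of 0.81 (adjusted p = 0.15, SE 0.45) and the signalling chain was lower.

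**Figure D4:**
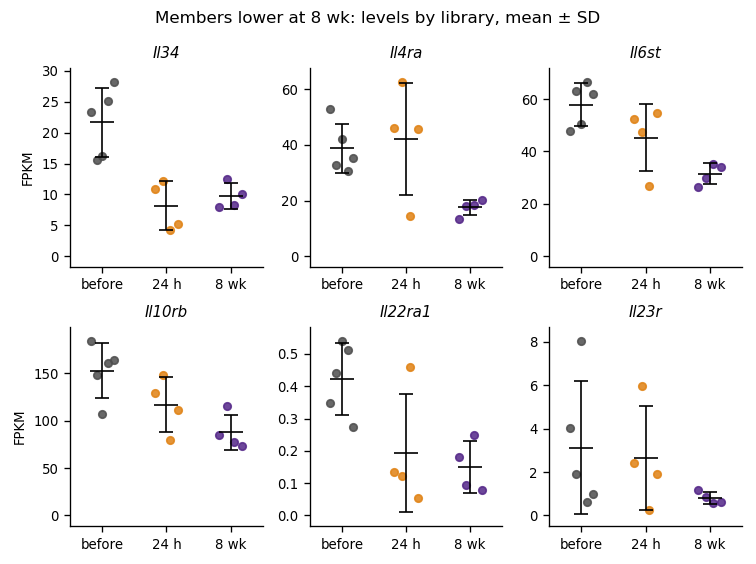
The panels show FPKM in every library for the 6 members that fell at 8 weeks, with mean and SD as black bars and linear axes. For Il34, Il4ra, Il6st and Il22ra1 all 8-week points lie under all points from before. The before points of Il23r spread from 0.600 to 8.05 FPKM.

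The 8-week and 24 h libraries were compared directly to ask which genes differed between the times. Of 73 genes 7 were higher at 8 weeks and 1 lower, where 3.28% and 3.66% of all genes tested were, and the median log2 difference was 0.42 against −0.08 over all genes. The 8 were Cxcl12 (2.15), Il18r1 (1.95), Il15ra (1.76), Il7r (1.71), Il33 (1.16), Il15 (1.09) and Il11ra1 (0.81), all higher, and Il18bp (−1.97), lower, with adjusted p from 0.013 to 0.049. In FPKM, all 8-week libraries of Il11ra1, at 43.8 to 62.8, were above those of 24 h, at 26.4 to 35.01, and Il18r1 read 0.676 to 2.29 against 0.297 to 0.555. None of the 8 calls held without 24 h replicate 2 or without 8-week replicate 1, and 15 genes were higher and 6 lower without 24 h replicate 3. Over all libraries 20 genes rose at both 24 h and 8 weeks, 29 listed at 24 h were called higher at 8 weeks alone (11 of them rose at 24 h too without 24 h replicate 3), and Cxcl10, Il1rl2 and Il18bp were called higher at 24 h alone. Only for Il18bp among these 3 did the difference between the times pass.

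Ligands and receptors were set side by side through 91 known pairs. At 8 weeks both partners were tested for 44 pairs. In 29 both rose, in 5 the ligand alone passed, in 7 the receptor alone passed, and in 2 the ligand rose while the receptor fell. The last were Il6 with Il6st, and Il12b with Il23r, whose call was lost under most fits as given above. At 24 h both partners rose in 3 of 32 pairs, and in 14 the ligand rose with a receptor that did not pass. Without 24 h replicate 3 more members rose, the receptors Ccr1 and Ccr2 among them, and the pairs were not recounted for that fit. Of the 30 members listed only through their 8-week level 28 rose, so the read minimum itself set pairs with such a gene towards a rise. Of all genes tested 27.7% rose at 8 weeks and 9.19% at 24 h. Pairs share genes, so these counts describe the table and carry no test.

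Genes of the same systems with other names were counted from fixed lists. Across all genes tested, 27.7% rose and 26.4% fell at 8 weeks, and 9.19% rose and 5.78% fell at 24 h. Of 21 cytokine and receptor genes 16 rose and 1 fell at 8 weeks, and 10 of 20 rose at 24 h. Csf2rb, the chain shared by the receptors of interleukins 3 and 5 and granulocyte-macrophage colony-stimulating factor, changed by 2.38 (adjusted p = 0.0023, SE 0.33) at 24 h and 3.20 (adjusted p = 1.6e-05, SE 0.24) at 8 weeks. Csf2ra rose at 8 weeks by 1.899 (adjusted p = 7.2e-05, SE 0.20). Of 10 atypical chemokine receptors and chemokine system genes 7 rose and 2 fell at 8 weeks and 2 of 9 rose at 24 h. Ackr1, a chemokine-binding receptor of venules and red blood cells, changed by 3.19 (adjusted p = 0.00094, SE 0.53), and Ackr3, which scavenges Cxcl12, fell from 65.8, 75.7, 100.4, 63.3 and 49.2 FPKM to 29.8, 50.1, 19.5 and 43.6 at 8 weeks, −0.95 (adjusted p = 0.015, SE 0.27). Among 16 genes of chemokine receptor signalling 10 rose and 4 fell at 8 weeks and 9 rose and 1 fell at 24 h. Among 22 genes between the interleukin 1 receptor and NF-kappaB 7 rose and 6 fell at 8 weeks, with a median log2 change of −0.14. Irak3, an inhibitor of that pathway, changed by 2.01 (adjusted p = 3.1e-05, SE 0.18) and the kinase subunit Chuk by −1.29 (adjusted p = 3.9e-05, SE 0.12). Of 17 JAK-STAT and SOCS genes 4 rose and 4 fell at 8 weeks, and 2 rose and 1 fell at 24 h. The 8-week counts of this list and of the NF-kappaB list were near the shares over all genes.

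The order of levels shifted with these changes. Before TAM 14 of the 86 listed genes averaged over 10 FPKM and 33 under 1, and at 8 weeks these were 30 and 15. The highest means before were those of Il10rb (153 ± 28.6 FPKM, SD, n = 5), Il6st (57.9 ± 8.30), Cxcl12 (39.03 ± 11.3) and Il4ra (38.7 ± 8.95). The last 2 overlapped from library to library. At 8 weeks Cxcl12 led (210.2 ± 55.9 FPKM, SD, n = 4), and the values of Il10rb (87.6 ± 18.8) and Ccl6 (79.5 ± 26.2) overlapped each other.

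Il1f9 and Il9r were listed at 24 h only. Il1f9, an interleukin 36 cytokine, read 0.318, 0.411, 1.77 and 1.20 FPKM there, and the interleukin 9 chain Il9r read 0.670, 0.835, 0.0189 and 0.615. In each of the other groups at least 2 libraries of both genes held fewer than 16 reads. The 13 genes listed before and at 8 weeks but not at 24 h were Ccl21a, Ccl21c, Ccl24, Ccr10, Cxcl1, Cxcl2, Cxcl5, Cxcl13, Cxcr1, Cxcr5, Il6, Il12b and Il17re, of which Cxcl5 alone did not pass at 8 weeks. Where a gene had several transcripts at 1 FPKM or more, the share of each was compared by a two-sided exact permutation test. Of 47 such tests 0 passed after adjustment, and 6 had an unadjusted p under 0.05. In the authors' deposited table of 8 weeks against before, 64 of the 111 transcripts of these genes had a q-value under 0.05 and a positive log2 ratio and 6 a negative one, for 52 and 5 genes. Copies of 1 transcript were counted separately for Ccl19, Ccl21a and Ccl21c, and all of these were among the 64. The share over all deposited transcripts is not given here.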

How the data were processed

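Stranded mRNA libraries of 13 adrenal samples were sequenced, per the labels' protocols, and the submitters' processing notes name bcl2fastq 2.17, TopHat2 2.0.14 and the mouse build mm10. No source used here says whether counting used strand. Per the file headers, the authors deposited FPKM and an expected count (an estimated number of reads) of every listed transcript in each library, and a table of 8 weeks against before with log2 values, a p-value and a q-value. The read minimum of the tables was read from the values and was met by 100.0% of transcripts. There were 19655 transcripts in the tables of before and 8 weeks, 19191 at 24 h and 18738 in all of them. Listed reads were 86.5% to 93.0% of the totals that FPKM implies, so low genes carry counting error beside the spread between libraries.

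Expected counts were summed per gene over the transcripts listed in both tables compared and rounded. Each pair of groups was fitted alone with edgeR 4.0.16 in R 4.3.3 (TMM, filterByExpr, quasi-likelihood test without a block), with Benjamini-Hochberg adjustment over all genes tested and a threshold of 0.05. A standard error is the log2 fold change over the square root of F. Levels are FPKM with the SD over libraries. In data simulated for 8 weeks against before over 14301 genes, 55% of 2-fold and 85% of 4-fold changes were called. For 24 h against before these were 57% and 87%, over 13995 genes, and for 8 weeks against 24 h 2% and 38%, over 14013 genes. The simulated spread was that of the reference group alone, and genes with few reads there were left out. Correlations between replicates ran from 0.81 to 0.98 at 24 h and from 0.94 to 0.98 before. The shares for 24 h against before can thus be too high, and they do not cover scarce genes. Alternatives were DESeq2 1.42.0, its size factors, no scaling, implied totals, other filters, limma 3.58.1 voom with quality weights, 1 fit of all libraries, a replicate block and leaving out each library, and the removal of 24 h replicates 3 and 4 together was added after seeing the data. Genes were named by a rule: per contrast the 12 top rises and 8 top falls of called members without overlap, the 8 most abundant before TAM, those missing from a table, and partners of these. Others named were chosen after their values were seen. A single member is counted but not reported here. The members, roles and lists were chosen with earlier results of these data known. Gene coordinates are 1-based on mm10 as deposited, and promoter windows are RefSeq's on GRCm38.p6.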

Additional observations from a re-analysis of the deposited data

Results flagged for a closer look

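In 15 cases 1 library lay far from the others of its group, in 7 of 57 members checked before TAM, 5 of 46 at 24 h and 3 of 57 at 8 weeks, where chance alone flags about 1 in 20. Before TAM, replicate 1 was the high library for Ccr2 (4.11 FPKM, next 1.96), Cxcl10 (5.48, next 1.37), Cxcl16 (18.5, next 9.76) and Cxcr6 (3.01, next 0.580), replicate 2 for Ccl21a (15.98, next 4.71) and Cxcr4 (30.4, next 18.9), and replicate 3 for Il6 (0.0644, all others 0). At 24 h, replicate 4 was high for Ccl6 (276.7, next 90.1), Ccl9 (82.7, next 20.5), Ccr1 (19.4, next 4.41) and Cxcl10 (51.7, next 12.996), and replicate 1 for Ccr2 (6.67, next 4.02). At 8 weeks, Cxcr5 was high in replicate 1 (2.75, next 0.453), Cxcl16 in replicate 2 (58.7, next 38.3) and Il2rb in replicate 3 (4.79, next 3.14).

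In 8 genes the effect at 8 weeks differed from that at 24 h by the direct edgeR test of 4 against 4 libraries. The log2 difference of 8 weeks minus 24 h was 2.15 for Cxcl12, 1.95 for Il18r1, 1.76 for Il15ra, 1.71 for Il7r, 1.16 for Il33, 1.09 for Il15, 0.81 for Il11ra1 and −1.97 for Il18bp. These 8 genes were picked by that test on the same libraries, so the lack of overlap between their groups adds no support. The share of all genes without overlap is not given here. None of the 8 calls held without each library in turn.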

How the results depend on the processing

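At 8 weeks against before, the 61 higher and 6 lower members became 56 to 62 and 5 to 6 when single libraries were left out, and 60 of the 67 calls held without each library in turn. At 24 h 12 of 25 calls held. The 23 higher became 12 to 35 and the 2 lower 0 to 3 without single libraries, and 45 and 4 by voom with quality weights. For 8 weeks against 24 h none of the 8 calls held without each library in turn, and the 7 higher and 1 lower became 0 to 15 and 0 to 6, 14 and 2 in 1 fit of all libraries, 16 and 3 by DESeq2, 20 and 8 by voom, and 13 and 6 without 24 h replicates 3 and 4. The cause was not tested. Same-numbered libraries did not deviate together (correlations from −0.13 to 0.28), so their numbers are not taken as pairs. With the replicate block the counts were 5 and 0 at 24 h, 0 and 0 between the later groups, and 53 and 5 at 8 weeks. Shares of transcripts gave 0 calls under every alternative run. No call changed direction under any alternative. Members near the read minimum are limited by counting error.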
